A study of Mus musculus with 6 samples.

Results

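The guidance genes comprised the ephrins and their Eph receptors, the semaphorins with their plexin and neuropilin receptors, the Slits with their Robo receptors, and the netrins with their Unc5 receptors. Membership followed from the gene symbol, and 67 of the 34745 genes in the deposited table matched, 34 of them ligands and 33 receptors. Their transcripts were measured by RNA sequencing of the prostates of male C57BL/6 mice that were young adults at the start. In the T + E2 group, 3 mice carried a slow-release pellet of testosterone and estradiol under the skin over 12 weeks, renewed monthly with 1 pellet at a time, a treatment used to model benign prostatic hyperplasia with bladder outlet obstruction. In the CON group, 3 mice had the skin incision without a pellet. The 6 mice were separate animals, so that n = 3 in each group, and the hormones were given together, so the effect of either alone cannot be told apart from that of the other.

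Guidance proteins were first described as cues that attract or repel growing axons, and the same proteins act between the epithelium, stroma, vessels and nerves of adult organs. Ephrins are held at the cell surface and signal to Eph receptor tyrosine kinases on the neighbouring cell, with ephrin A ligands bound to the membrane by a lipid anchor and ephrin B ligands by a transmembrane domain. Semaphorins signal through plexins, and the secreted class 3 semaphorins mostly need a neuropilin as co-receptor, while Slits bind Robo receptors and netrins bind Dcc, neogenin and the Unc5 receptors.

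The tissue label could be checked against the prostate luminal genes, which were abundant in every mouse, with a summed level between 13750 and 27550 FPKM (counted fragments divided by gene length and library depth). Reads counted on genes numbered between 14816146 and 16555549 per mouse, and the guidance genes together took 0.141 to 0.162% of them. Levels are also given as CPM, the counts scaled to a common library size, on which 3 counts, used as the floor of detection, equal 0.181 to 0.202 CPM. This floor covers counting error only. The libraries of CON replicate 2 and T + E2 replicate 2 stood apart by their transcripts of the seminal vesicle, a gland that lies against the prostate. The summed seminal vesicle genes reached 12090 FPKM in CON replicate 2 and 308 FPKM in T + E2 replicate 2, against at most 3.36 FPKM in the other 4 mice. In T + E2 replicate 2 this sum came mostly from Svs2, Svs5 and Pate4, at 151, 108 and 39.0 FPKM. There Svs4 held 9.01 FPKM, against 6432 FPKM in CON replicate 2, and Svs1, Svs3a, Svs3b and Svs6 held at most 0.339 FPKM. The mix of these genes thus differed between the 2 libraries. CON replicate 2 also had the highest summed adipocyte genes, at 102 FPKM against 11.5 to 27.1 FPKM in the other mice, and the highest summed skeletal muscle genes, at 212 FPKM against 65.8 to 164 FPKM. Counts below were therefore also taken with these 2 libraries left out, which leaves 2 mice in each group.

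Promoter sequences are shown for 3 of the members whose change passed the test in every planned fit, because a gene's own promoter is where hormone receptors and general transcription factors could bind. RefSeq promoter sequence (GRCm38.p6) could be matched to 58 of the 67 members. Each run below is the 250 bases before the start of transcription, written 5′ to 3′ on the strand of the gene. Capitals mark the GC box (GGGCGG or its reverse complement CCGCCC, with overlapping matches run together) and the TATA box (TATAAA or its reverse complement TTTATA). The windows lie at chr4:28812881-28813130 on the plus strand for Epha7, at chr13:54949161-54949410 on the plus strand for Unc5a and at chr8:8661243-8661492 on the minus strand for Efnb2.
Epha7: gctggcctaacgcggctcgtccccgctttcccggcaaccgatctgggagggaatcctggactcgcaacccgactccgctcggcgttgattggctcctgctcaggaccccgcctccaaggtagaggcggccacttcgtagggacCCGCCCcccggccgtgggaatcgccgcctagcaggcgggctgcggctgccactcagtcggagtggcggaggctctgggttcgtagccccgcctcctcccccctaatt
Unc5a: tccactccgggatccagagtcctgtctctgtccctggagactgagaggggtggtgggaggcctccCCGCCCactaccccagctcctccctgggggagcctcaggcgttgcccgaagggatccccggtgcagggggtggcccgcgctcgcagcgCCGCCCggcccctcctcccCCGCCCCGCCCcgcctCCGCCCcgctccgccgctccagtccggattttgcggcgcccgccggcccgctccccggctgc
Efnb2: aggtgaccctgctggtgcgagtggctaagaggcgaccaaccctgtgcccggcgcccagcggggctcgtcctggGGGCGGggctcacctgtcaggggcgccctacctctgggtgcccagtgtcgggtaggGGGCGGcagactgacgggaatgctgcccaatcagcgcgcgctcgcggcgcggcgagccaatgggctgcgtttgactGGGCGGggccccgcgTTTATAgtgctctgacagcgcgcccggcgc
All 3 runs lie upstream of the gene, outside its exons as deposited. They held 1, 5 and 3 GC boxes, and 32.7% of the 32851 promoter windows of the same length held at least 1. The TATA box was found in Efnb2 at position -30, as the reverse complement TTTATA, and not in the other runs. On either strand it occurred in 12.4% of all windows. Position -30 is counted from a RefSeq start 469 bases upstream of the start of Efnb2 as deposited. Neither AGAACA, the hexamer bound by the androgen receptor, nor AGGTCA, the hexamer bound by oestrogen receptors, occurred on either strand of the 3 windows. Among all windows 16.1% held AGAACA and 14.0% held AGGTCA. The windows of Nrp2 and Sema4g, which passed in every planned fit too and whose windows run into the deposited gene, held 5 and 3 GC boxes and none of the other 3 motifs. GC content was between 69.2 and 76.8% in these 5 windows, with a median of 52.4% over all windows. A match in these letters is a description of the sequence and not a binding site.

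Guidance genes fell more often than they rose in the T + E2 group. Of the 67 members, 60 had enough reads to be tested and 7 did not (Epha6, Epha8, Epha10, Ntn5, Robo3, Sema5b and Slit1, with between 0 and 23 counts over all 6 mice). With edgeR's quasi-likelihood test, adjusted after Benjamini-Hochberg over all 15580 genes tested, 3 members rose and 13 fell at an adjusted p under 0.05, and 44 did not pass. The 3 that rose are 5.0% of the tested members, against 10.4% of all tested genes that rose, and the 13 that fell are 21.7%, against 9.25% of all tested genes that fell. With a change of more than 2-fold required as well, which is the study's definition of a differentially expressed gene (DEG), 1 member rose (1.67%, against 4.27% of all tested genes) and 4 fell (6.67%, against 3.38%). Of 31 tested ligands 1 rose and 6 fell, and of 29 tested receptors 2 rose and 7 fell. These counts, and those of the small families below, stand against 10.4% of all tested genes that rose and 9.25% that fell. The T + E2 mice were all above the CON mice for 11 members, or 18.3%, against 20% of all tested genes, and all below them for 23 members, or 38.3%, against 20.7%. The median log2 fold change of the tested members was -0.15, with 22 above zero and 38 below, while the median over all tested genes was -0.002. In RNA from whole tissue, fewer cells of a type and less RNA per cell cannot be told apart.

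The count of falling members depended on which mice were included. Leaving out CON replicate 2 reduced it from 13 to 7 of 60, and leaving out T + E2 replicate 1 reduced it to 8. Calls over all genes dropped in the same fits, so that these members are 11.7% against 5.84% of all tested genes in the former and 13.3% against 5.81% in the latter. The count of rising members went from 3 to 1 without CON replicate 3 and to 2 without CON replicate 2, T + E2 replicate 1 or T + E2 replicate 3. The falls of more than 2-fold went from 4 to 2 without CON replicate 1 or T + E2 replicate 1. The rises of more than 2-fold went from 1 to 2 without CON replicate 2. With both libraries that held seminal vesicle transcripts left out, 3 members rose and 3 fell, or 5.0% each way, against 5.25% of all tested genes that rose and 3.4% that fell in that fit. Of those 6 members 5 were among the 16 above (Epha7, Sema4a, Sema4g, Nrp2 and Efnb2). The other was Ephb3, which rose in that fit, while Nrp1 no longer passed. DESeq2, the tool named in the study's methods, called 16 members too, without Efnb3 and Sema4c and with Ephb6 and Unc5b. Further members passed in a fit that left out 1 mouse, namely Slit3 and Ephb6 without CON replicate 1, Unc5d without CON replicate 2, Sema6d without CON replicate 3, Epha5 without T + E2 replicate 2 and Sema4b without T + E2 replicate 3.

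**Figure D1:**
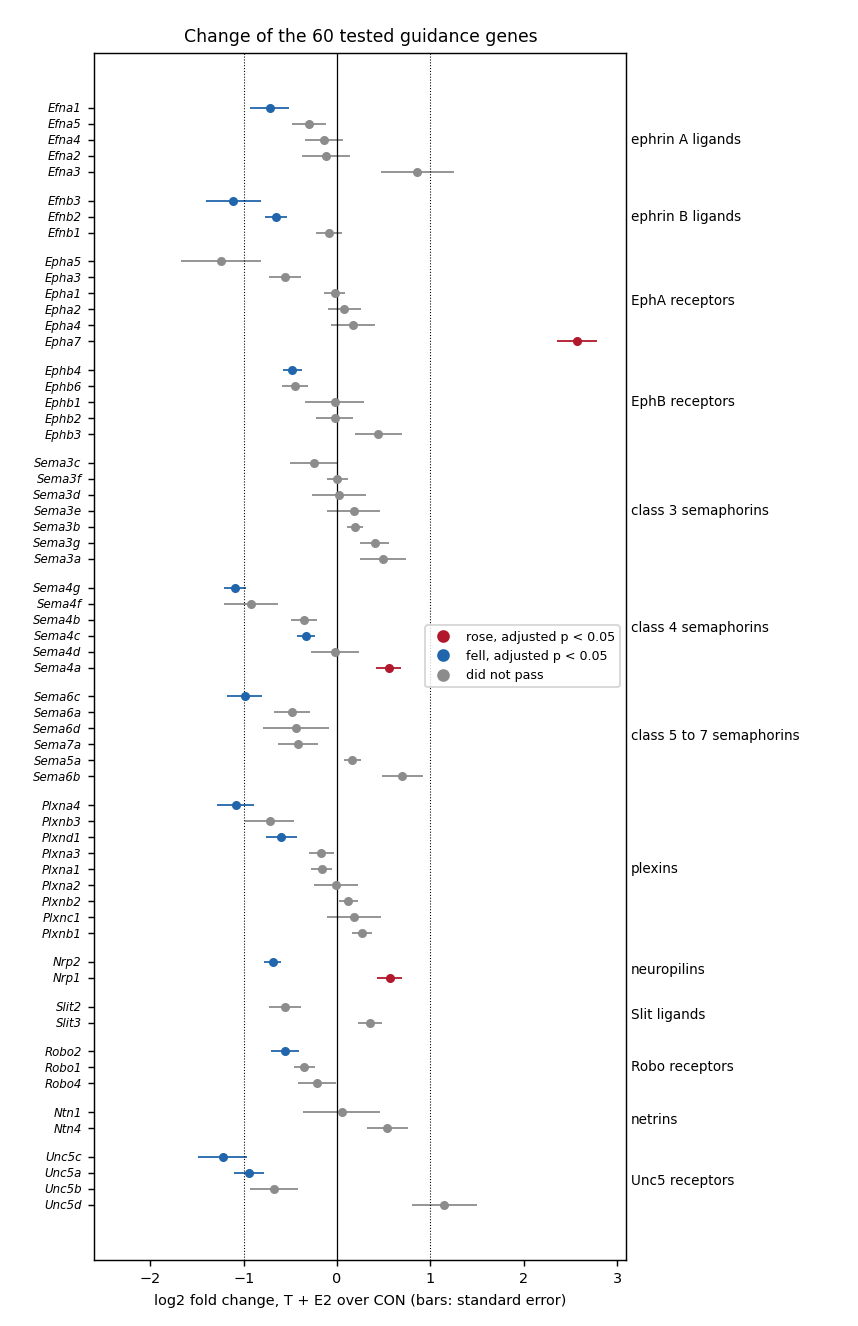
Log2 fold change of each of the 60 tested guidance genes in the T + E2 group over the CON group, with its standard error as a bar, by family from ephrins at the top to Unc5 receptors at the bottom. The dotted lines mark 2-fold. Epha7 stands alone on the right at 2.57, and 13 members that fell are spread over 9 of the 13 families.

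Among the ephrin ligands, 3 of 8 fell and none rose. The fall of Efnb2, a transmembrane ligand known as a marker of arterial endothelium, left no overlap between the groups. Its normalized level was 31.2, 24.1 and 28.2 CPM among CON mice and 16.7, 18.1 and 18.4 CPM among T + E2 mice. It was 1.57-fold lower (log2 fold change -0.65 ± 0.12 SE, adjusted p = 0.00816), and it passed the test whichever mouse was left out. Efnb3, the ephrin B ligand best known from the midline of the nervous system, gave 2.98, 2.43 and 2.89 CPM among CON mice and 1.73, 0.913 and 1.2 CPM among T + E2 mice. Its level was low throughout and 2.16-fold lower in the T + E2 group (log2 fold change -1.11 ± 0.29 SE, adjusted p = 0.0334). The adjusted p of Efnb3 exceeded 0.05 in 5 of the 6 fits that left out a mouse, at most 0.0971, and passed only without T + E2 replicate 1. It was 0.0602 by DESeq2.

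Efna1, the most abundant ephrin per gene length and a ligand expressed by epithelial and endothelial cells, gave 43.8, 45.3 and 45.7 CPM among CON mice and 22.7, 21 and 38.2 CPM among T + E2 mice. T + E2 replicate 3 lay close to the CON mice, and the other two T + E2 mice far below them. The call of this 1.65-fold fall (log2 fold change -0.72 ± 0.21 SE, adjusted p = 0.0469) depended on which mice were included. The adjusted p was 0.0013 without T + E2 replicate 3 and between 0.0879 and 0.134 when any other mouse was left out. Efnb1, the third ephrin B ligand, held 6.95 ± 1.09 FPKM (SD, n = 3) in the CON group against 6.35 ± 0.678 in the T + E2 group, with overlapping groups (adjusted p = 0.692). Efna4, the ephrin A ligand with the highest level per length among those that did not pass, held 4.06 ± 0.686 FPKM against 3.59 ± 0.578 (adjusted p = 0.662). The remaining ephrin A ligands, Efna2, Efna3 and Efna5, had adjusted p-values of 0.781, 0.16 and 0.274.

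Among the 11 tested Eph receptors, 1 rose and 1 fell, close to the shares of all tested genes. Epha7, a receptor of the ephrin A ligands, had the largest change of any member, from 2.65, 2.56 and 3.4 CPM among CON mice to 20.8, 17.2 and 13.4 CPM among T + E2 mice. The lowest T + E2 mouse lay far above the highest CON mouse. These levels rested on 40, 39 and 54 counts among CON mice and 300, 283 and 201 counts among T + E2 mice. The rise was 5.95-fold (log2 fold change 2.57 ± 0.21 SE, adjusted p = 0.000187), and the log2 fold change stayed between 2.42 and 2.72 when any mouse was left out. Per gene length Epha7 went from 0.239 ± 0.0338 FPKM (SD, n = 3), below most other guidance genes, to 1.39 ± 0.259 FPKM. The gene lies on the plus strand at chr4:28813131-28967499 (GRCm38), directly downstream of the promoter window printed above.

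Ephb4, the receptor of Efnb2 that marks venous endothelium and is also found in epithelia, gave 42.5, 46.8 and 41.7 CPM among CON mice and 32.6, 28.2 and 33.1 CPM among T + E2 mice. The groups did not overlap, and the level was 1.4-fold lower in the T + E2 group (log2 fold change -0.48 ± 0.10 SE, adjusted p = 0.0136, and 0.0517 without CON replicate 2). The FPKM of Efnb2 divided by that of Ephb4 was 1.39, 0.976 and 1.28 among CON mice and 0.969, 1.22 and 1.05 among T + E2 mice. This ratio overlapped between the groups. Ephb6, an Eph receptor that lacks kinase activity, was the most abundant Eph receptor per length, with 20.6 ± 3.61 FPKM in the CON group against 14.7 ± 1.72 FPKM in the T + E2 group. All 3 T + E2 mice were below all 3 CON mice for Ephb6, and it missed the threshold (log2 fold change -0.45 ± 0.14 SE, adjusted p = 0.0561), while it passed by DESeq2 (adjusted p = 0.0201), among genes with an FPKM of at least 1 (0.0482) and without CON replicate 1 (0.0422). Epha1, an epithelial member of the family, held 4.77 ± 0.467 FPKM against 4.57 ± 0.404 FPKM (adjusted p = 0.898).

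The other receptors that stayed near the threshold were low. Epha3 had an adjusted p of 0.0566 and Epha5 of 0.08, both with the T + E2 mice below the CON mice. Epha3 passed under total-count scaling, among genes with an FPKM of at least 1 and in both limma fits on FPKM. Epha5 had a mean of 3.41 CPM in the CON group against 1.42 CPM in the T + E2 group, a log2 fold change of -1.24 ± 0.43 SE. The rest, Epha2, Epha4, Ephb1, Ephb2 and Ephb3, overlapped between the groups.

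**Figure D2:**
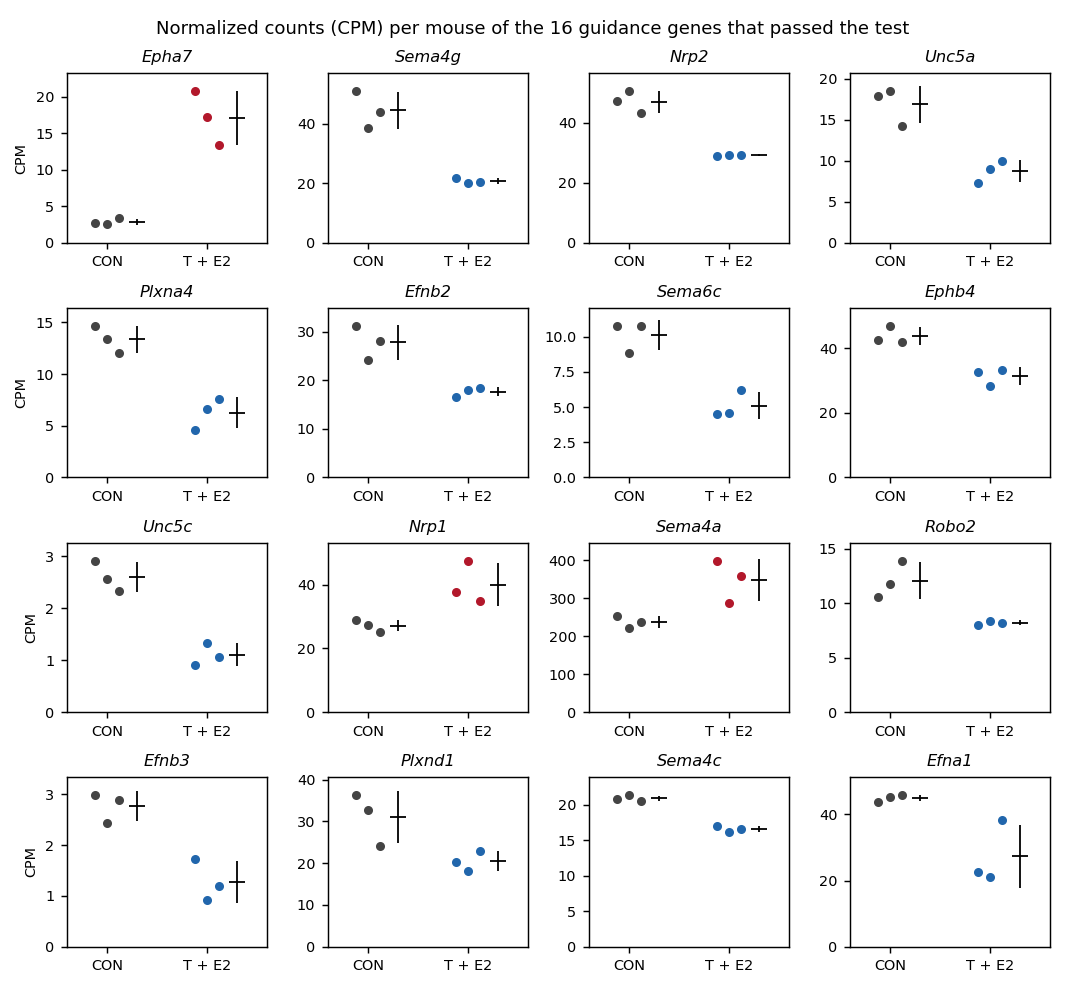
TMM-scaled CPM of the 16 members that passed the test in each mouse, with each vertical axis starting at 0. Points are mice, in the order of the replicate number from left to right within a group, and the cross is the group mean with its SD (n = 3). The groups do not overlap in any of the 16, which were chosen by the test on these same values, so this adds no support. Over all tested genes, the groups were apart with T + E2 higher in 20% and with T + E2 lower in 20.7%. In Efna1 the T + E2 replicate 3 lies just below the CON mice.

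The semaphorins did not move in 1 direction. Of 19 tested, 1 rose and 3 fell, all in classes 4 and 6, whose members are membrane proteins. Sema4a, which signals through plexins of the B and D type and is also known from immune cells, was the member with the highest level per gene length, at 25.8 ± 1.76 FPKM (SD, n = 3) in the CON group against 36.7 ± 5.44 FPKM in the T + E2 group. Its normalized level was 254, 221 and 239 CPM among CON mice and 399, 288 and 358 CPM among T + E2 mice. All T + E2 mice were above all CON mice, and the rise was 1.47-fold (log2 fold change 0.55 ± 0.13 SE, adjusted p = 0.0238). The adjusted p was between 0.0618 and 0.0763 without CON replicate 2, CON replicate 3, T + E2 replicate 1 or T + E2 replicate 3.

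Sema4g, a class 4 semaphorin of the same membrane-bound type, moved the opposite way. Its level was 50.8, 38.6 and 44.0 CPM among CON mice and 21.9, 20 and 20.6 CPM among T + E2 mice. The T + E2 mice lay close together and well below every CON mouse, 2.14-fold lower on average (log2 fold change -1.09 ± 0.12 SE, adjusted p = 0.000699), and the call held whichever mouse was left out. The FPKM of Sema4a divided by that of Sema4g was 5.22, 5.99 and 5.67 among CON mice and 19.1, 15 and 18.2 among T + E2 mice. This ratio, chosen after the values were seen and not tested, did not overlap between the groups. That outcome was already set by the opposite, non-overlapping changes of both genes and adds nothing to them. Sema4c, a ligand of Plxnb2, gave 20.8, 21.4 and 20.6 CPM against 17.0, 16.1 and 16.6 CPM. This was the smallest change that passed (log2 fold change -0.34 ± 0.10 SE, adjusted p = 0.0438), and the adjusted p lay between 0.0771 and 0.125 whichever mouse was left out and was 0.124 by DESeq2. Its exons share 334 bases with D430040D24Rik on the opposite strand, so some reads could belong to either gene if counting ignored the strand.

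Sema6c, a transmembrane semaphorin of class 6, gave 10.7, 8.87 and 10.8 CPM among CON mice and 4.5, 4.57 and 6.21 CPM among T + E2 mice. The groups were well apart, with a 1.99-fold lower level in the T + E2 group (log2 fold change -0.99 ± 0.19 SE, adjusted p = 0.00873). The call held without any 1 mouse, and the adjusted p was 0.0528 without the 2 libraries that held seminal vesicle transcripts. Sema6b of the same class lay in the opposite direction, at 3.67 ± 0.521 CPM in the CON group against 5.96 ± 1.15 CPM in the T + E2 group, and did not pass (adjusted p = 0.0606). Sema4f (adjusted p = 0.0595) had lower levels in all 3 T + E2 mice.

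None of the 7 class 3 semaphorins, the secreted ligands of the neuropilin and plexin complexes, passed the test. Of these 6 had a log2 fold change above zero, with a family range of -0.25 to 0.49 and adjusted p-values of 0.105 to 0.981. Sema3c, a secreted semaphorin of epithelium and mesenchyme, had the highest level per length of the class, at 4.66 ± 1.38 FPKM in the CON group against 3.81 ± 0.812 FPKM in the T + E2 group (adjusted p = 0.517). Sema3a, Sema3b and Sema3g were higher in every T + E2 mouse than in any CON mouse. For Sema3b the levels were 22.4, 22.3 and 21.6 CPM among CON mice and 24.6, 25.5 and 25.5 CPM among T + E2 mice, a small difference that did not pass (log2 fold change 0.19 ± 0.09 SE, adjusted p = 0.171). Sema4b, the class 4 member with the highest level among those that did not pass, held 4.51 ± 0.367 FPKM against 3.46 ± 0.714 FPKM (adjusted p = 0.117, and 0.0227 without T + E2 replicate 3). Sema5a, a transmembrane semaphorin with thrombospondin repeats, held 3.04 ± 0.171 FPKM against 3.32 ± 0.162 FPKM (adjusted p = 0.242).

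The neuropilins, co-receptors of class 3 semaphorins and of vascular endothelial growth factor, moved in opposite directions. Nrp1 gave 28.8, 27.3 and 25.2 CPM among CON mice and 37.8, 47.5 and 34.8 CPM among T + E2 mice, and Nrp2 gave 47.3, 50.5 and 43.3 CPM among CON mice and 28.8, 29.5 and 29.3 CPM among T + E2 mice. The groups overlapped for neither gene. The rise of Nrp1 was 1.48-fold (log2 fold change 0.56 ± 0.13 SE, adjusted p = 0.0212), and the fall of Nrp2 was 1.61-fold (log2 fold change -0.69 ± 0.09 SE, adjusted p = 0.0018). The fall of Nrp2 held whichever mouse was left out, with an adjusted p of at most 0.00935, whereas the adjusted p of Nrp1 was 0.0555 without CON replicate 2, 0.0747 without CON replicate 3 and 0.113 without the 2 libraries that held seminal vesicle transcripts. Per gene length, the FPKM of Nrp1 divided by that of Nrp2 was 1.43, 1.27 and 1.37 among CON mice and 3.08, 3.79 and 2.79 among T + E2 mice. Every T + E2 mouse was above every CON mouse in this ratio, which was chosen after the values were seen and was not tested. That outcome was already set by the opposite, non-overlapping changes of both genes and adds nothing to them. The summed FPKM of the neuropilins lay between 7.33 and 8.46 among CON mice and between 8.09 and 10.08 among T + E2 mice, and overlapped.

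Of the 9 plexins, the receptors that transmit the semaphorin signal into the cell, 2 fell and none rose. Plxna4, an A-type plexin best known from sensory and sympathetic neurons, gave 14.6, 13.4 and 12.0 CPM among CON mice and 4.63, 6.58 and 7.61 CPM among T + E2 mice. It was lowest in T + E2 replicate 1, and the groups did not overlap. The level was 2.12-fold lower (log2 fold change -1.09 ± 0.20 SE, adjusted p = 0.00738). The call held without any 1 mouse, and the adjusted p was 0.065 without the 2 libraries that held seminal vesicle transcripts. Plxnd1, the plexin of endothelial cells, gave 36.2, 32.7 and 24.1 CPM among CON mice and 20.3, 18.2 and 23.0 CPM among T + E2 mice. CON replicate 3 lay close to T + E2 replicate 3, and the level was 1.51-fold lower in the T + E2 group (log2 fold change -0.60 ± 0.16 SE, adjusted p = 0.0389). The call was lost without CON replicate 1, CON replicate 2, T + E2 replicate 1 or T + E2 replicate 2, with adjusted p-values of 0.0951 to 0.124.

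The remaining plexins did not pass, with adjusted p-values of 0.0951 to 0.978. Plxnb2, a plexin of epithelial cells and the receptor of Sema4c, was the guidance gene with the next highest level per length after Sema4a over all 6 mice, at 19.9 ± 0.449 FPKM (SD, n = 3) in the CON group against 21.1 ± 2.74 FPKM in the T + E2 group, with overlapping groups (adjusted p = 0.436). Plxnb1, the receptor of Sema4d, and Plxna1, Plxna2, Plxna3 and Plxnc1 overlapped between the groups too, while Plxnb3 was lower in every T + E2 mouse (adjusted p = 0.0951).

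Neither of the 2 tested Slits, the secreted repellents that bind Robo receptors, passed the test. Slit3 was the fourth most abundant guidance gene per length, at 12.4 ± 1.95 FPKM in the CON group against 15.5 ± 1.76 FPKM in the T + E2 group. Its normalized level was 92.0, 68.9 and 74.8 CPM among CON mice and 95.8, 94.9 and 111 CPM among T + E2 mice, so that the groups did not overlap while the difference did not pass (log2 fold change 0.36 ± 0.13 SE, adjusted p = 0.0909, and 0.0363 without CON replicate 1). Slit2 lay in the other direction, at 15.3, 10.8 and 11 CPM against 8.3, 8.1 and 8.74 CPM, and was the member closest to the threshold among those that missed it (log2 fold change -0.56 ± 0.17 SE, adjusted p = 0.0536). It passed under total-count scaling.

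All 3 tested Robo receptors had a log2 fold change below zero, and 1 of them passed. Robo2 gave 10.5, 11.8 and 13.9 CPM among CON mice and 7.96, 8.4 and 8.21 CPM among T + E2 mice. The T + E2 mice lay within a narrow range below all CON mice, 1.47-fold lower (log2 fold change -0.56 ± 0.15 SE, adjusted p = 0.0331). The call of Robo2 was kept only without CON replicate 1 among the fits that left out a mouse, and the adjusted p was otherwise between 0.0699 and 0.11. Robo1 had the highest level per length of the family, 2.42 ± 0.236 FPKM in the CON group against 1.84 ± 0.0298 FPKM in the T + E2 group, without passing (adjusted p = 0.0678). Robo4, the endothelial member, overlapped between the groups (adjusted p = 0.484).

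Among the netrin receptors of the Unc5 type, which mediate repulsion by netrins and are dependence receptors, 2 of 4 fell. Unc5a gave 17.9, 18.5 and 14.3 CPM among CON mice and 7.33, 8.95 and 10 CPM among T + E2 mice. It was 1.92-fold lower with no overlap between the groups (log2 fold change -0.94 ± 0.16 SE, adjusted p = 0.00609). The call held without any 1 mouse, and the adjusted p was 0.065 without the 2 libraries that held seminal vesicle transcripts. Unc5c gave 2.91, 2.56 and 2.33 CPM among CON mice and 0.899, 1.34 and 1.07 CPM among T + E2 mice. It was near the lower end of what could be tested and 2.34-fold lower in the T + E2 group (log2 fold change -1.23 ± 0.26 SE, adjusted p = 0.0155, and 0.0551 without T + E2 replicate 1). Unc5d, the rarest in the CON group, lay in the opposite direction, at 0.662, 1.45 and 0.754 CPM against 2.49, 1.89 and 2.0 CPM, and did not pass (log2 fold change 1.15 ± 0.35 SE, adjusted p = 0.0538). Unc5b, an endothelial netrin receptor, was the most abundant per length, and its CON level of 5.92 ± 2.58 FPKM was raised by CON replicate 2 alone, with 50.8 CPM beside 25.1 and 26.5 CPM in the other CON mice. It held 3.6 ± 0.284 FPKM in the T + E2 group (adjusted p = 0.104, and 0.0389 by DESeq2).

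The netrins themselves did not pass. Ntn1, the founding member of the family, gave 16.6, 35.9 and 42.4 CPM among CON mice and 42.5, 39.5 and 16.2 CPM among T + E2 mice. In each group 1 mouse, CON replicate 1 and T + E2 replicate 3, lay far below the others, so that Ntn1 varied 2.56-fold within the CON group against 2.62-fold within the T + E2 group and did not separate them (log2 fold change 0.05 ± 0.41 SE, adjusted p = 0.948). Ntn4, a netrin of basement membranes, lay at 9.9 ± 2.24 CPM against 14.4 ± 3.29 CPM (adjusted p = 0.125).

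**Figure D3:**
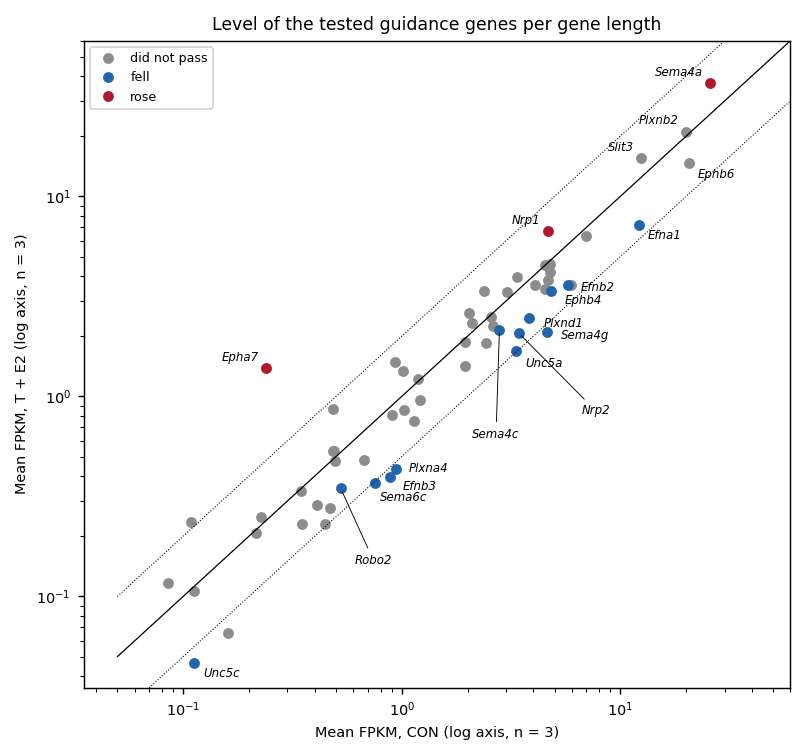
Mean FPKM of each of the 60 tested guidance genes in the CON group (horizontal) and the T + E2 group (vertical), both on log axes, n = 3 mice per group. The solid line marks equal levels and the dotted lines 2-fold, with the members that passed the test and the 3 next most abundant members labelled. Sema4a, at 25.8 and 36.7 FPKM, stands at the upper end, and Epha7 is the member farthest above the line.

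Within groups, most members were steady. Over the 50 members with a mean count of at least 50, the median coefficient of variation was 12.9% in the CON group against 11.6% in the T + E2 group. A range of more than 2-fold between mice of a group occurred for 4 members in the CON group and for 1 in the T + E2 group. Besides Ntn1 and Unc5b, these were Sema6d, which varied 2.99-fold in the CON group with CON replicate 3 lowest, and Sema4d, which varied 2.17-fold with CON replicate 2 lowest. Neither Sema6d (adjusted p = 0.42) nor Sema4d (adjusted p = 0.962) passed. Exons of Epha1 share 236 bases with Zyx on the opposite strand. Those of Ephb4, Plxna4, Unc5a and Unc5c share 33, 110, 34 and 118 bases with a gene on the opposite strand. These are 6.01% of the exon bases of Epha1 and 0.711, 0.78, 0.816 and 0.617% of the others. The share is 7.27% for Sema4c, so the limit given there covers a smaller part of the bases of these genes. Zyx had 6495 counts over all mice beside 2114 for Epha1, and D430040D24Rik had 172 beside 1726 for Sema4c. A smaller shared part therefore need not mean fewer reads of the other gene. Efna3, Plxna1 and Efna4, which did not pass, share larger parts, at 14.1, 10.7 and 10.5%. In all, 17 members share exon bases with another gene.

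The other genes of these pathways were counted as whole lists, which were chosen with earlier results of these data known. Of 99 such genes, 95 were tested, and 9 rose (9.47%, against 10.4% of all tested genes) and 16 fell (16.8%, against 9.25%), with a median log2 fold change of -0.11. Among 23 tested further receptors and co-receptors, 4 rose (17.4%) and 7 fell (30.4%). Dscam, a netrin receptor of the immunoglobulin superfamily, went from 0.265, 0.657 and 0.754 CPM among CON mice to 7.89, 7.43 and 6.41 CPM among T + E2 mice (log2 fold change 3.67 ± 0.33 SE, adjusted p = 0.000286). L1cam, an adhesion molecule of axons and a partner of Nrp1, went from 40.5, 40.2 and 30.2 CPM to 11.8, 18.2 and 22.0 CPM (log2 fold change -1.09 ± 0.22 SE, adjusted p = 0.0121). Both were without overlap between the groups. Neo1, the netrin receptor neogenin, named here after its values were seen, fell from 88.5 ± 2.52 to 64 ± 3.18 CPM (SD, n = 3; log2 fold change -0.47 ± 0.09 SE, adjusted p = 0.00751). Lrrc4, a netrin G ligand, fell as well (log2 fold change -1.03, adjusted p = 0.0188), and Cd72, a receptor of Sema4d on B cells, rose (log2 fold change 0.83, adjusted p = 0.0446). Of 14 alternative fits, Lrrc4 lost its call in 5 and Cd72 in 13.

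Of 11 tested further ligands and cofactors, 2 rose (18.2%) and 1 fell (9.09%). Furin, a protease that processes semaphorins, rose (log2 fold change 0.57, adjusted p = 0.00615). Adam17, a protease that sheds membrane proteins, rose (log2 fold change 0.34, adjusted p = 0.0498), and Cxcl12, a chemokine, fell (log2 fold change -0.58, adjusted p = 0.0236). Of 15 alternative fits, Adam17 lost its call in 12 and Cxcl12 in 6. Of 61 tested cytoplasmic effectors, 3 rose (4.92%) and 8 fell (13.1%). Ngef, the exchange factor that links EphA receptors to RhoA, gave 13.6, 15.6 and 18.7 CPM among CON mice and 43.4, 40.1 and 41.7 CPM among T + E2 mice (log2 fold change 1.38 ± 0.13 SE, adjusted p = 0.000297). Every T + E2 mouse was far above every CON mouse for Ngef, as for Epha7. The collapsin response mediators Dpysl2 and Dpysl4, which act downstream of semaphorins in neurons, fell with log2 fold changes of -1.02 and -1.32 (adjusted p = 0.00336 and 0.0108), and Srgap3, a Slit-Robo GTPase-activating protein, fell too (log2 fold change -1.05, adjusted p = 0.0114).

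Most markers of nerve fell in the T + E2 group as well. Of 10 listed genes of neurons and Schwann cells, 7 fell and none rose, and all 10 had a log2 fold change below zero, with a median of -1.13. Their summed level was between 95.9 and 121 FPKM among CON mice and between 24.7 and 59.0 FPKM among T + E2 mice. Among T + E2 mice it was 24.7, 59.0 and 57.1 FPKM in the order of the replicates. Of the 13 guidance genes that fell, 7 were lowest in T + E2 replicate 1 and 6 in T + E2 replicate 2. For some of them this order rests on small differences, such as Nrp2 with 28.8, 29.5 and 29.3 CPM among T + E2 mice. Sox10, a transcription factor of Schwann cells, had a log2 fold change of -1.66 (adjusted p = 0.00259). No gene of the list was at 0 in all mice, and the part of these cells in the falls of the guidance genes was not tested. Of the 7 endothelial genes 1 rose and none fell. Their summed level was 18.4 to 25.7 FPKM among CON mice and 21.2 to 25.8 FPKM among T + E2 mice. The part of endothelial cells in the falls was not tested either.

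Markers of other cell types differed between the groups as well. The summed smooth muscle genes lay between 1627 and 1952 FPKM among CON mice and between 1385 and 1418 FPKM among T + E2 mice, with 2 of 7 that fell. The urothelial genes lay between 299 and 476 FPKM among CON mice and between 1025 and 1191 FPKM among T + E2 mice. Of 4 tested, 3 rose. Upk1a made up most of this sum, at 290 ± 93.4 FPKM (SD, n = 3) in the CON group against 983 ± 64.5 FPKM. Upk2 was low, at 0.91 FPKM in the CON group against 4.09 FPKM in the T + E2 group. Upk3a and Krt20 were not tested, with 99 and 120 counts in T + E2 replicate 2 and at most 6 in any other mouse. The luminal genes of the prostate were split, 3 higher and 3 lower of 9, and their sum was lower among T + E2 mice, at 13750 to 15040 FPKM against 21730 to 27550 FPKM. None of the 6 fibroblast genes and none of the 6 leukocyte genes passed. The part of these cells in the rises of Epha7, Nrp1 and Sema4a and in the falls of the other members was not tested.

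**Figure D4:**
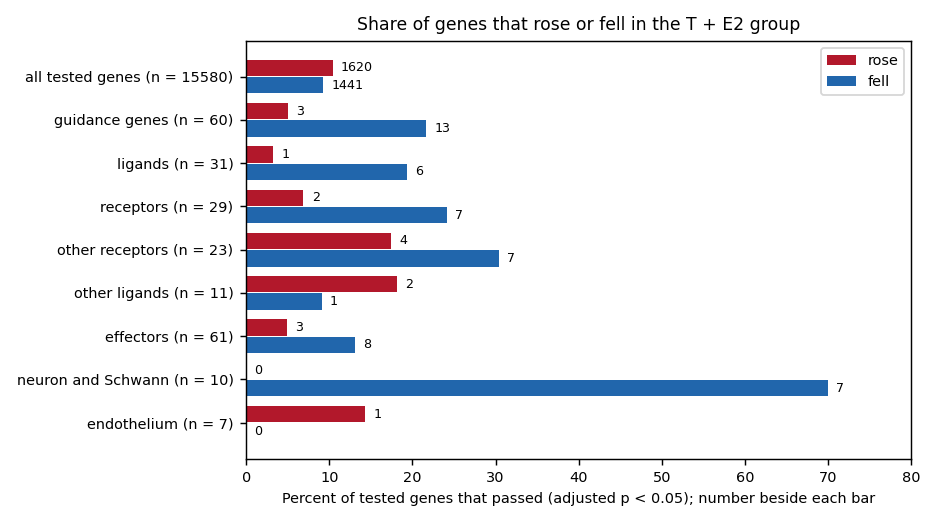
Percent of tested genes that rose or fell in the T + E2 group at an adjusted p under 0.05, for all tested genes, the guidance genes, their ligands and receptors, the further pathway lists, and the nerve and endothelial markers, with the number of genes beside each bar. The guidance genes that fell are 21.7% of those tested, against 9.25% of all genes, and the nerve markers have the longest bar, with 7 of 10 that fell.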

How the data were processed

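Prostate RNA of 3 CON and 3 T + E2 mice was sequenced after preparation with a TruSeq kit. The authors deposited 1 table with whole-number counts of reads per gene, not normalized, for each mouse. Beside each count the authors deposited an FPKM, the count divided by gene length and by the total counted on genes. The submitters' processing notes name TopHat, Bowtie2 and HTSeq, and whether counting used the strand is not given in the sources used here. Groups and replicate numbers were taken from the sample labels.

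The test was edgeR 4.0.16 under R 4.3.3: filterByExpr (minimum count 10, minimum total 15) kept 15580 genes, libraries were scaled by TMM (factors 0.956 to 1.03), and a two-sided quasi-likelihood test compared the groups, with Benjamini-Hochberg adjustment over all tested genes. Because the table holds counts, edgeR is the main test, and DESeq2, which the study's methods name, is an alternative. Each standard error (SE) was taken from the F statistic as log2 fold change over √F. CPM values are the counts after TMM scaling. Each pair of mice in a group differed by far more than sampling noise (chi-square per degree of freedom 17.8 to 39). On simulated counts made from these samples, 71.1% of genes changed 2-fold and 97.9% of genes changed 4-fold were recovered.

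The members and lists were chosen with earlier results of these data known. The 16 members that passed, the most abundant member of each family that did not, and up to 4 changed genes of each pathway list are given with values. Genes named for missing the threshold narrowly or for their spread within a group were chosen after the values were seen. Depth was 14816146 to 16555549 counts per mouse. Alternatives were median-of-ratios and total-count scaling, no filter, a filter at an FPKM of 1, DESeq2 1.42.0, limma 3.58.1 on log2(FPKM + 0.1) and log2(FPKM + 1), a replicate block, each mouse left out, and the 2 libraries with seminal vesicle transcripts left out, the last chosen after seeing the data.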

Additional observations from a re-analysis of the deposited data

How the results depend on the processing

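The 3 rises and 13 falls among the guidance genes came out as 3 and 9 to 14 under the other scalings, filters and tools, with 37 to 66 members tested. These falls are 15.3 to 27.0% of tested members, against 6.0 to 10.7% of all tested genes. The rises are 4.55 to 8.11%, against 7.2 to 11.8%. With a change of more than 2-fold required, 0 rises and 0 falls were called by limma on log2(FPKM + 1), where the pseudocount shrinks the change of low genes, 2 falls by limma on log2(FPKM + 0.1) and 1 fall among genes with an FPKM of at least 1, where fewer low genes are tested. Total-count scaling, which moves the median of all genes by -0.04 on the log2 scale, called 3 rises and 14 falls. Leaving out each mouse in turn gave 1 to 4 rises and 7 to 11 falls, and 1 to 2 rises and 2 to 6 falls of more than 2-fold. Without the 2-fold requirement, these falls are 11.7 to 18.3% of tested members, against 5.26 to 7.97% of all tested genes. The rises are 1.67 to 6.67%, against 6.9 to 9.27%. With CON replicate 2 and T + E2 replicate 2 both left out, an alternative chosen after seeing the data, 3 rises and 3 falls were called, 1 of each over 2-fold. Efnb2, Epha7, Nrp2 and Sema4g passed in all 15 alternatives. Among the 28 members whose fold change was recomputed under the alternatives, a reversed sign occurred in 3, none of which passed. Efnb1 ranged from -0.202 to 0.003 when a mouse was left out and was 0.038 without both libraries. Epha1 ranged from -0.077 to 0.046 and was 0.103 without both. Ntn1 ranged from -0.261 to 0.373, was -0.001 by limma on log2(FPKM + 0.1) and -0.009 without both. The replicate block gave 3 rises and 9 falls, and deviations of mice with the same number correlated by -0.05, 0.03 and 0.05, so the numbers were not taken as pairing. At 3 mice in each group, members with few counts, such as Unc5c, Unc5d and Efnb3, have wide errors.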
